A study of Mus musculus with 8 samples.

Results

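The genes here encode proteins that make, move, sense and remove prostaglandin E2, and their RNA was measured in mouse pancreatic ductal adenocarcinoma (PDAC) cells. They are Slco2a1, Ptgs1, Ptgs2, Ptges, Ptges2, Ptges3, Hpgd, Ptger2, Ptger4 and Abcc4, which is 10 of the 39179 genes counted, each matched by its symbol to 1 row of each count table. Slco2a1 was chosen by its measured levels, which were lower with WT-USP21 than with ED-USP21 in lines 2, 3 and 4. Its difference between the constructs is therefore given as values, with no test. The other 9 were taken for their place in the same pathway.

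The cells came from the iKPC mouse model, and the alleles that all 8 libraries share include ROSA_rtTA and p48-Cre. The rtTA protein is a transcription factor that doxycycline activates, and p48-Cre acts in the pancreatic lineage. Each of 4 cell lines was sequenced once with WT-USP21 overexpression and once with ED-USP21 overexpression, which gives 4 libraries per construct. USP21 is a deubiquitinating enzyme, and ED is kept as the labels write it, unexplained there. Lines 1 and 2 have the background FVB/C57Bl6, and lines 3 and 4 have C57BL/6. Whether the cultures received doxycycline is not stated, and cells carrying neither construct were not analysed here.

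Prostaglandins are lipid mediators that cells make from arachidonic acid, a fatty acid released from membranes by phospholipases. The cyclooxygenases turn it into prostaglandin H2, the prostaglandin E synthases turn that into prostaglandin E2, and the export pump ABCC4 carries the product out. Outside, prostaglandin E2 acts on the receptors EP1 to EP4, while the transporter SLCO2A1 takes it back into cells, where the dehydrogenase HPGD inactivates it. In carcinomas, cyclooxygenase-2 and prostaglandin E2 are known for their effects on tumour cells and on immune cells nearby.

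Gene counts per library were 72828184 to 107551210, with a median of 94541265.5. Usp21 stood at 147, 944, 539 and 941 CPM (counts scaled by TMM to the size of the library) with WT-USP21 in lines 1 to 4, against 1658, 3133, 1662 and 2721 CPM with ED-USP21. ED-USP21 libraries thus held more Usp21 RNA in 4 of 4 lines, so form and amount of Usp21 cannot be told apart in the differences below. In bulk RNA, fewer cells of a type and less RNA per cell cannot be told apart either. Of the ductal markers, Krt18 averaged 3134 CPM and Krt8 averaged 2781 CPM over all libraries, whereas Epcam averaged 4.37 CPM in line 1 and 0.172 CPM in lines 2 to 4. The 7 endothelial markers summed to 0.472 to 2.39 CPM in WT-USP21 and 0.459 to 0.655 CPM in ED-USP21 libraries, with Emcn at 0 reads. The 6 leukocyte markers found summed to 6.2 to 13.3 CPM with WT-USP21 and 5.15 to 16.3 CPM with ED-USP21, and Cd68 alone averaged 10.8 CPM. The 6 fibroblast markers summed to 6.85 to 15 CPM with WT-USP21 and 4.78 to 7.84 CPM with ED-USP21. Col1a1 averaged 2.89 and 1.74 CPM with these constructs, Pdgfra 4.81 and 4.12 CPM, and Col1a2 1.75 and 0.495 CPM. These 3 did not pass within lines (edgeR adjusted p = 0.654, 0.741 and 0.910). Col1a2 had a log2 difference of 7.92 in line 4, where its ED-USP21 library had 0 reads, so its size depends on the prior count of 2. The part of these markers in the differences below was not tested.

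The promoters of 4 members are shown because these genes carry the patterns described below: Slco2a1 differed between the constructs in lines 2 to 4, Ptgs1 and Ptges set line 1 apart, and Ptgs2 is the abundant cyclooxygenase transcript beside Ptgs1. Each runs 5′ to 3′ on the gene's own strand, from 250 bases before to 50 bases after the start that RefSeq gives in build GRCm38.p6. That build is not the mm9 build named for the counts. The places are chr9:103008237-103008536 (+) for Slco2a1, chr2:36230176-36230475 (+) for Ptgs1, chr1:150099781-150100080 (+) for Ptgs2 and chr2:30903248-30903547 (-) for Ptges. Capitals mark letters of the motifs searched, on either strand.
Slco2a1: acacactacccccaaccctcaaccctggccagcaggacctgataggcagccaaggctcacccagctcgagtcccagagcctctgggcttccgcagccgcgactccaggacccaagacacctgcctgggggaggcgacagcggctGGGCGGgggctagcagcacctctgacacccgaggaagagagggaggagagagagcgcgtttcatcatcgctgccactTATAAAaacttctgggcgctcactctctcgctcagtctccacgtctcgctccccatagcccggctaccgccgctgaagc
Ptgs1: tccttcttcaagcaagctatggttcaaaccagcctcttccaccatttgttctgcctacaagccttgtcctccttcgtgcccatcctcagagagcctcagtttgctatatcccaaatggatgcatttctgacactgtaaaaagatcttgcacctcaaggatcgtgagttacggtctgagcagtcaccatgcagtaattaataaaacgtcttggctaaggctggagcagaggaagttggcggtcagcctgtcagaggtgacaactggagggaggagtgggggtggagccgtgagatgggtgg
Ptgs2: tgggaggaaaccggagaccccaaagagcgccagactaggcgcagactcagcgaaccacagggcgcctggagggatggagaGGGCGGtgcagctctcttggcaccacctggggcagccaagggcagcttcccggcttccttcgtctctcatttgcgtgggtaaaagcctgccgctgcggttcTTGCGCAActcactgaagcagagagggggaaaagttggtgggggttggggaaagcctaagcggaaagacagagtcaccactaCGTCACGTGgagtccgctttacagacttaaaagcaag
Ptges: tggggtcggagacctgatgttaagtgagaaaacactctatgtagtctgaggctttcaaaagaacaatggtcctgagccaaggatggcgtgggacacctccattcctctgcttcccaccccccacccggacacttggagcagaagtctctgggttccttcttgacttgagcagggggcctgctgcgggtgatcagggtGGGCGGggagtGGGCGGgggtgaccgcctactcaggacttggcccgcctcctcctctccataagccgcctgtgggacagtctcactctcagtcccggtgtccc

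The search took 8 motifs, and their shares are over 32851 mouse promoters of the same 300 bases. The Slco2a1 window held a TATA box (TATAAA), whose first base lay at -29 from the start, as 13.6% of all promoters did anywhere in the window. It also held a GC box (GGGCGG), found in 35.7% of all. The Ptgs2 window held a GC box, a C/EBP site (TTGCGNAA, in 0.798% of all), a CRE core (TGACG, 20.8%) and an E-box (CACGTG, 7.15%), of which the last 2 overlap. The Ptges window held GC boxes at -53 and -42, and the Ptgs1 window held none of the 8 motifs. The remaining motifs were an AP-1 site (TGANTCA, 7.81%), a TCF/LEF core (CTTTGA, 16.0%) and an NF-kB site (1.20%). These were in 0 of the 10 members' windows. A match is a run of letters, not a shown binding site.

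Slco2a1 (ENSMUSG00000032548), the prostaglandin importer, had the widest gap between the constructs among the members, which is the gap it was chosen for. It stood at 16.7, 29.9 and 11.3 CPM with WT-USP21 in lines 2, 3 and 4, against 59.2, 66.1 and 65.8 CPM with ED-USP21. In line 1 it stood at 42.6 CPM with WT-USP21 and 37.7 CPM with ED-USP21. The WT-USP21 values of lines 2 to 4 lay below each ED-USP21 value, and line 1 lay between these groups with little between its own libraries.

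In log2 CPM the Slco2a1 difference, WT-USP21 minus ED-USP21, was 0.18, -1.83, -1.15 and -2.54 in lines 1 to 4. The ED-USP21 library thus held 3.55-fold, 2.21-fold and 5.81-fold the WT-USP21 level in lines 2, 3 and 4. These are the values that chose the gene. The rank and the share that follow restate that choice and are no support for the difference. By the smallest of its falls in lines 2 to 4, it ranked 23 of 12320 genes with a mean of at least 1 CPM. A log2 difference of -1 or lower in each of these lines was found for 0.321% of the 16192 genes tested. With ED-USP21 the 3 lines lay close together, at 63.7 ± 3.89 CPM (SD, n = 3), and the spread between lines was wider with WT-USP21, at 19.3 ± 9.54 CPM (SD, n = 3).

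Abcc4 (ENSMUSG00000032849), the pump that exports prostaglandin E2 and cyclic nucleotides, was lower with WT-USP21 in the same 3 lines, by less. It stood at 142, 176 and 141 CPM with WT-USP21 in lines 2, 3 and 4, against 203, 203 and 198 CPM with ED-USP21. In line 1 the order turned round, with 163 CPM with WT-USP21 and 127 CPM with ED-USP21. The groups did not overlap in lines 2 to 4, and the ED-USP21 library of line 1 was the lowest of the 8.

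Over the 4 lines Abcc4 did not pass, at -0.21 in log2 within lines (SE 0.15, edgeR adjusted p = 0.797). Without line 1 it fell by 0.40 on the log2 scale (SE 0.08, edgeR adjusted p = 0.0454). It was the 1 member called in that fit, in which 4.57% of all 16326 genes tested were called with 2.51% higher and 2.06% lower with WT-USP21. Of the 6 ductal markers 1 was called in the same fit, Krt19 (log2 -0.58, edgeR adjusted p = 0.0261), and Avil was the 1 tuft marker called (log2 -0.28, edgeR adjusted p = 0.0466); their part in the result was not tested. Over the 8 alternatives of the comparison within lines its adjusted p ran from 0.0454 to 0.9999, and its difference was negative in each.

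**Figure D1:**
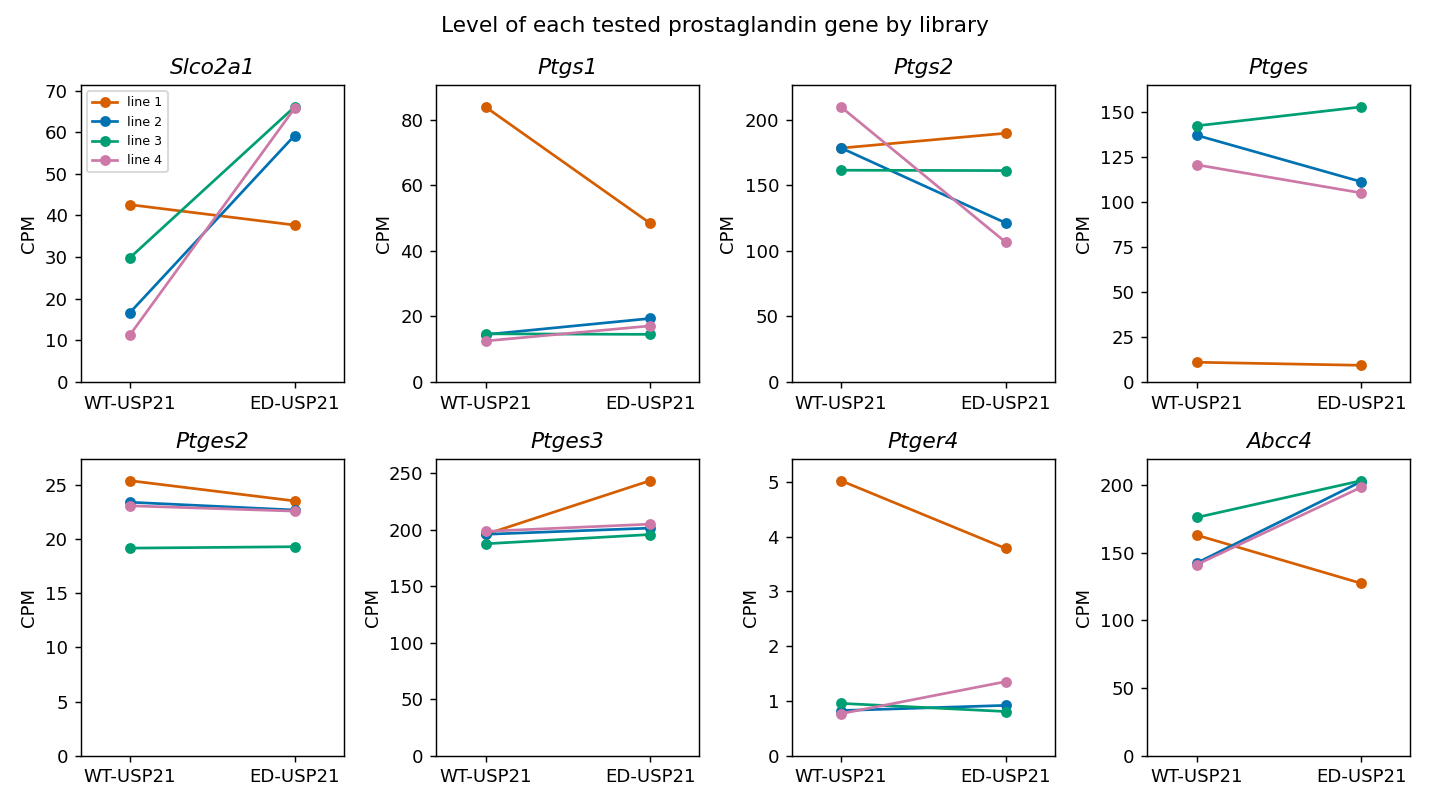
Level in CPM (vertical axes from 0) of the 8 members with enough reads to test, with 1 panel a gene, WT-USP21 on the left, ED-USP21 on the right, and 1 joined pair of points for each cell line. Slco2a1 and Abcc4 are lower with WT-USP21 in lines 2 to 4 and not in line 1, and line 1 stands apart for Ptgs1, Ptges and Ptger4.

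Ptgs2 (ENSMUSG00000032487), the inducible cyclooxygenase-2, was higher with WT-USP21 in lines 2 and 4 and level in lines 1 and 3. It stood at 178, 179, 162 and 210 CPM with WT-USP21 in lines 1 to 4, against 190, 121, 161 and 107 CPM with ED-USP21. The low values were those of the ED-USP21 libraries of lines 2 and 4. The log2 difference within lines was 0.36 (SE 0.18, edgeR adjusted p = 0.691), and 0.52 (SE 0.17, edgeR adjusted p = 0.165) without line 1, so Ptgs2 did not pass in either. It was positive in each of the 8 alternatives, with an adjusted p of 0.165 to 0.9999.

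Ptgs1 (ENSMUSG00000047250), the cyclooxygenase-1 that many tissues make constantly, differed by line. Its construct difference took both signs among the lines and did not pass. It stood at 84.0 CPM with WT-USP21 and 48.5 CPM with ED-USP21 in line 1. In lines 2, 3 and 4 it stood at 14.5, 14.7 and 12.5 CPM with WT-USP21, against 19.4, 14.5 and 17.1 CPM with ED-USP21. Both libraries of line 1 lay above the other 6, whose highest was 19.4 CPM. The construct difference within lines was near 0 on average, at -0.01 in log2 (SE 0.22, edgeR adjusted p = 0.996), from 0.79, -0.42, 0.02 and -0.45 in lines 1 to 4.

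The balance of the cyclooxygenase transcripts was not tested. It tilted further to Ptgs2 with WT-USP21 in lines 2 and 4, less in line 1, and was near equal in line 3. Per kilobase of transcript, Ptgs2 was at 1.37 times the level of Ptgs1 with WT-USP21 and 2.52 times with ED-USP21 in line 1. In lines 2, 3 and 4 it was at 7.96, 7.08 and 10.8 times with WT-USP21, against 4.04, 7.15 and 4.02 times with ED-USP21. Ptgs2 thus stood above Ptgs1 in 8 of 8 libraries.

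Of the prostaglandin E synthases, Ptges (ENSMUSG00000050737), the inducible membrane enzyme mPGES-1 that is known to work with cyclooxygenase-2, was low in line 1. It stood at 10.9 CPM with WT-USP21 and 9.22 CPM with ED-USP21 in line 1. It stood at 137, 142 and 121 CPM with WT-USP21 in lines 2, 3 and 4, against 111, 153 and 105 CPM with ED-USP21. Line 1 averaged 10.1 CPM and lines 2 to 4 averaged 128 ± 18.8 CPM (SD over 6 libraries), a 12.7-fold gap. Between the constructs the log2 difference within lines was 0.16 (SE 0.08, edgeR adjusted p = 0.690), positive in lines 1, 2 and 4 and negative in line 3.

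Ptges2 (ENSMUSG00000026820), which encodes the membrane enzyme mPGES-2, hardly varied. It stood at 25.4, 23.4, 19.2 and 23.1 CPM with WT-USP21 in lines 1 to 4, against 23.5, 22.7, 19.3 and 22.6 CPM with ED-USP21. The highest library was 1.33-fold the lowest, and the construct difference was 0.04 in log2 (SE 0.06, edgeR adjusted p = 0.911). In line 1 Ptges was at 0.587 times the level of Ptges2 per kilobase with WT-USP21 and 0.535 times with ED-USP21. In lines 2, 3 and 4 it was at 7.98, 10.1 and 7.13 times with WT-USP21, against 6.68, 10.8 and 6.34 times with ED-USP21. The order of these synthase transcripts was thus reversed in line 1.

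Ptges3 (ENSMUSG00000071072) encodes p23, a cytosolic prostaglandin E synthase that is also a co-chaperone of HSP90. It stood at 196, 196, 188 and 199 CPM with WT-USP21 in lines 1 to 4, against 244, 202, 196 and 205 CPM with ED-USP21. The ED-USP21 library of line 1 was the high one, and the other 7 lay between 188 and 205 CPM. The WT-USP21 library was the lower one in 4 of 4 lines, with a mean difference of -0.12 in log2 (SE 0.07, edgeR adjusted p = 0.744). It was the 1 of 8 tested members with the same sign in all lines, which 16.8% of all genes tested showed. Of the 11 tested genes of HSP90 and its co-chaperones, edgeR called 0 within lines, with 1 at an unadjusted p under 0.05. The smallest p there was that of Fkbp5, at 139 ± 11.8 CPM with WT-USP21 and 169 ± 11.3 CPM with ED-USP21 (SD, n = 4 each; edgeR adjusted p = 0.472).

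Ptger4 (ENSMUSG00000039942), the receptor EP4, which raises cyclic AMP, was low and differed by line. It stood at 5.02 CPM with WT-USP21 and 3.79 CPM with ED-USP21 in line 1, from 462 and 393 reads. It stood at 0.824, 0.955 and 0.767 CPM with WT-USP21 in lines 2, 3 and 4, against 0.918, 0.807 and 1.35 CPM with ED-USP21, from 66 to 105 reads each. Line 1 averaged 4.70-fold the mean of the other lines, and within lines the constructs differed by -0.07 in log2 (SE 0.25, edgeR adjusted p = 0.976). In the GENCODE M21 annotation 16.5% of its exon bases overlap exons of other genes on the opposite strand, and whether reads were counted by strand is not stated, so those reads are uncertain.

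Ptger2 (ENSMUSG00000037759), the receptor EP2, which also raises cyclic AMP, had 0 reads in all 8 libraries. A count of 0 allows a level of up to 0.0289 to 0.0405 CPM, taken as 3 counts per library. Hpgd (ENSMUSG00000031613), the 15-hydroxyprostaglandin dehydrogenase, had 1, 4, 10 and 3 reads with WT-USP21 in lines 1 to 4, against 0, 7, 11 and 4 reads with ED-USP21. The sums of 18 and 22 reads give a ratio, WT-USP21 over ED-USP21 and scaled to depth, of 0.762 (95% exact interval 0.385 to 1.49, counting error only). Neither gene could be tested, and no difference of Hpgd between the constructs was detectable at this depth.

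**Figure D2:**
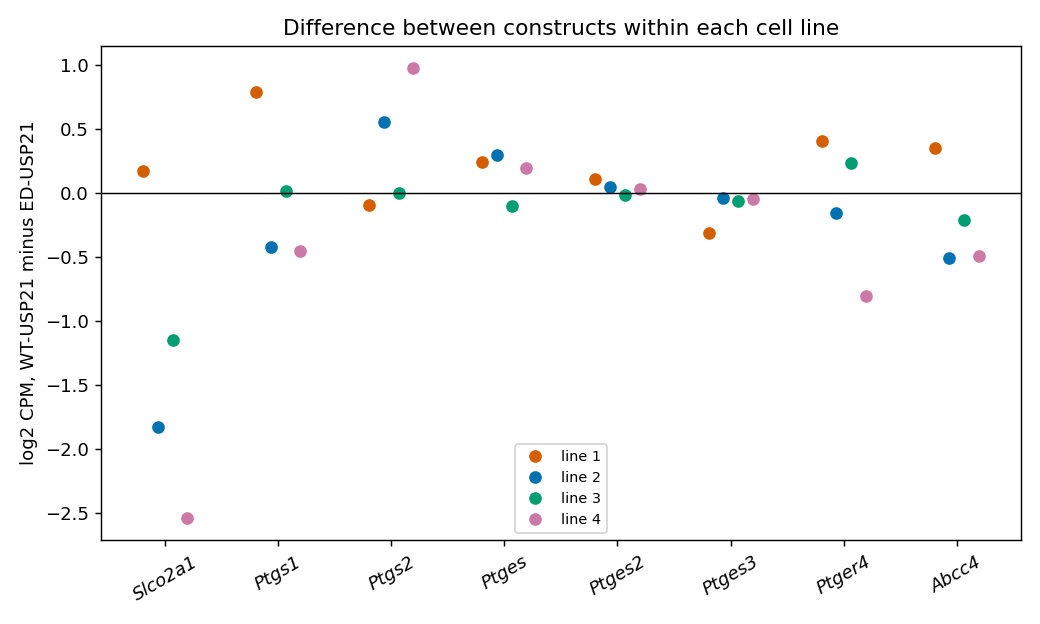
Difference in log2 CPM, WT-USP21 minus ED-USP21 (vertical axis), of the 8 tested members, with 1 point for each cell line. The points of Slco2a1 spread from 0.18 in line 1 to -2.54 in line 4, while those of Ptges2 lie at 0 or close to it.

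Between the constructs, edgeR called 0 of the 7 other members tested, without and with the cell line as a block. DESeq2 called 0 as well, but without the block it gave no adjusted p for Ptgs1 and Ptger4. In both edgeR fits 0 of the 7 had an unadjusted p below 0.05. Over all 16192 genes, 0% were called without the block and 0.0247% with it, while 2.42% and 8.28% had an unadjusted p below 0.05. The libraries of the constructs did not overlap for 0 of the 8 members, as against 1.78% of all genes. Among the 7 the middle log2 difference within lines was that of Ptgs1, at -0.013, and the median of all genes tested was -0.004. The difference between the constructs was not shown to depend on the background label, with edgeR and DESeq2 calling 0 of the 7. In edgeR 0 of the 7 had an unadjusted p below 0.05, against 2.32% of all genes, of which 0% were called. In lines 2 to 4 the WT-USP21 libraries of Abcc4 lay below the ED-USP21 libraries without overlap, which 9.33% of all genes did. Those of Ptgs2 lay above, as 9.15% of all genes did, but only by 161.6 against 161.3 CPM. Both of these values are of line 3, where Ptgs2 was level. Slco2a1 is left out of this count, since it was chosen by its values in these lines.

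Line 1 parted from the others for 3 members. In the edgeR test of the 4 lines, with the construct as a covariate, Ptges (adjusted p = 0.000246), Ptgs1 (adjusted p = 0.00778) and Ptger4 (adjusted p = 0.00995) were called. That is 3 of 8 members tested, while 24.8% of all genes tested were called, and 4 of 8 had an unadjusted p below 0.05, against 40.4% of all genes. Ptgs1 and Ptger4 were higher and Ptges lower in line 1. Ptges2 (adjusted p = 0.102), Ptges3 (0.453), Abcc4 (0.572), Ptgs2 (0.693) and Slco2a1 (0.734) did not pass in edgeR. The p of the called genes rests on line 1: without it, edgeR called 0 of the 8, with adjusted p of 0.232 for Ptges, 0.635 for Ptgs1 and 0.898 for Ptger4. Each line has only its 2 construct libraries as repeats, so the p-values measure the spread between those.

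In 26% of all genes both libraries of line 1 lay above the other 6 libraries, and in 24.3% both lay below. Among the members Ptgs1, Ptger4 and Ptges2 were above and Ptges was below. A gap of at least 2 in log2 between line 1 and the mean of the others was found for 7.02% of all genes. It was found for Ptges at -3.66, Ptger4 at 2.22 and Ptgs1 at 2.06. Ptgs1 is also used as a marker of tuft cells, chemosensory cells of epithelia. Of the other tuft markers, line 1 differed from the rest by -1.46 in log2 for Trpm5 (edgeR adjusted p = 0.0436 over the lines) and by -0.26 for Avil. Pou2f3 summed to 4 reads over the WT-USP21 libraries and 8 over the ED-USP21 libraries, Gfi1b had 0, and Alox5ap averaged 0.116 CPM. Of the 6 ductal markers edgeR called 4 among the lines, where 24.8% of all genes tested were called. Line 1 was higher for Epcam (log2 4.60, edgeR adjusted p = 0.00303), Krt8 (0.70, 0.0178) and Krt18 (0.45, 0.0337) and lower for Sox9 (-1.15, 0.0220). The part of these markers in the differences of line 1 was not tested.

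**Figure D3:**
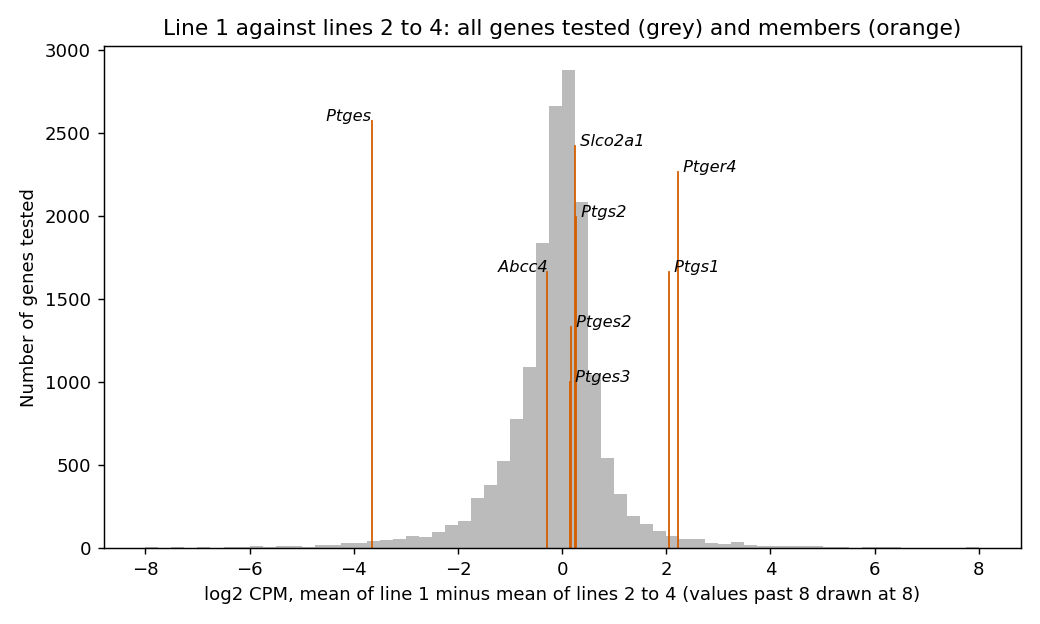
Histogram of the difference in log2 CPM between the mean of line 1 and the mean of lines 2 to 4 (horizontal axis) over the 16192 genes tested (grey), with the 8 tested members as orange lines of arbitrary height. Ptges lies far to the left at -3.66, Ptgs1 and Ptger4 lie to the right at 2.06 and 2.22, and the other 5 lie within 0.3 of 0.

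Per kilobase of the longest coding transcript in GENCODE M21, Ptges3 had the highest level of the members, at 93.9 to 122 CPM per kb with a median of 98.7. Ptgs2 followed with a median of 38.2, then Ptges with 31.8 and Abcc4 with 29.7, and the libraries of these 3 overlapped. Slco2a1 (median 5.64), Ptgs1 (5.54) and Ptges2 (4.60) formed the next group and overlapped as well. Line 1 broke these groups, with Ptges at 2.99 and Ptgs1 at 29.3 with WT-USP21, and 2.53 and 16.9 with ED-USP21. Ptger4 had a median of 0.283, below every library of those above it, and Hpgd had one of 0.0271. With the union of all annotated exons as length, the means of Slco2a1 and Ptges2 changed places, and the other ranks of the means stayed.

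**Figure D4:**
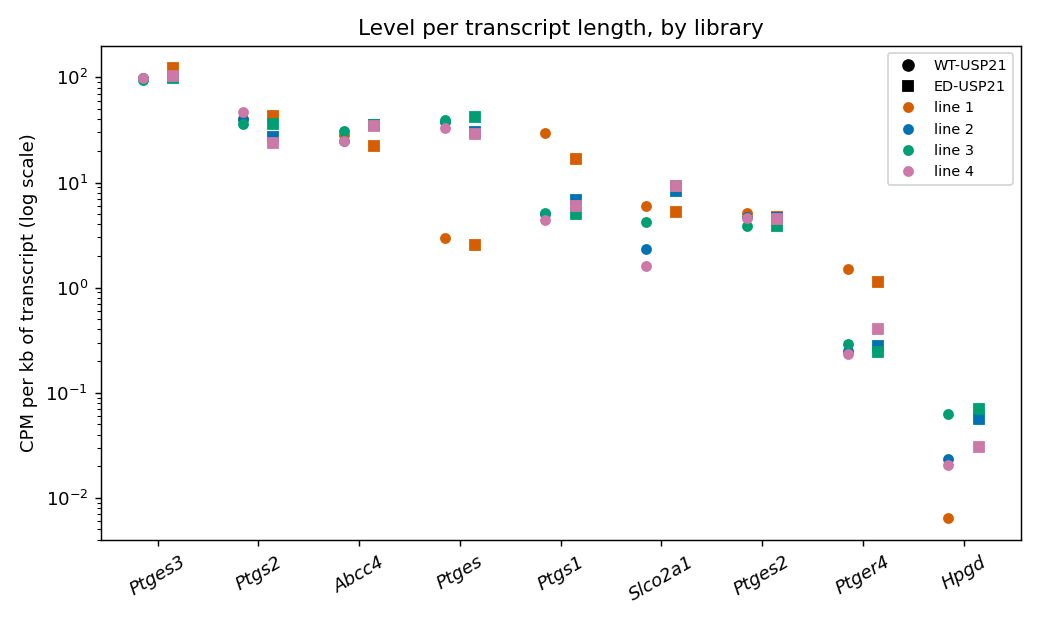
Level in CPM per kb of transcript (log scale) in each library, circles for WT-USP21 and squares for ED-USP21, with members ordered by their mean. Ptger2 and the ED-USP21 library of line 1 for Hpgd are at 0 and cannot be drawn. The members span from under 0.1 CPM per kb for Hpgd to a mean of 101.5 for Ptges3.

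The wider pathway was read from 9 lists of genes that are not members, with 64 genes tested. Within lines edgeR called 0 of the 64, with 9 at an unadjusted p below 0.05, where 8.28% of all genes had one. DESeq2 called 2 of the 64, Pla2g16 and Slco4a1, both higher, while it called 407 of all 16192 genes. Without line 1 edgeR called 7 of 63, 3 higher and 4 lower, which is 11.1% against the 4.57% of all genes given above. The genes named next as risen or fallen passed in edgeR without line 1 and not over the 4 lines.

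Among the genes that release or re-esterify arachidonate, 12 of 25 had enough reads to test. The phospholipase Pla2g16 rose without line 1 (log2 0.35, SE 0.07, edgeR adjusted p = 0.0452) and stood at 28.6 ± 3.29 CPM with WT-USP21 and 23.0 ± 3.55 CPM with ED-USP21 over the 4 lines (SD, n = 4 each). Its WT-USP21 library was the higher one in 4 of 4 lines (edgeR adjusted p = 0.284 within lines). Lpcat3, the acyltransferase that puts arachidonate back into phospholipids, fell without line 1 (log2 -0.37, SE 0.07, edgeR adjusted p = 0.0430), with 0.15 in line 1. Pla2g4a, the cytosolic phospholipase A2 of prostaglandin synthesis, averaged 130 CPM and did not pass over the 4 lines (log2 0.14, SE 0.13, edgeR adjusted p = 0.857). Without line 1 it did not pass either (log2 0.29, SE 0.08, edgeR adjusted p = 0.112). Pla2g2a, Pla2g2f and Pla2g4b had 0 reads.

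Of the other prostanoid synthases, 7 of 8 were tested. Akr1b8, an aldo-keto reductase, fell without line 1 (log2 -0.40, SE 0.06, edgeR adjusted p = 0.0201), with 113 ± 11.1 CPM with WT-USP21 and 139 ± 10.04 CPM with ED-USP21 over the 4 lines (SD, n = 4 each). The prostaglandin D synthase genes averaged 0.125 CPM for Ptgds and 0.724 CPM for Hpgds. The prostacyclin synthase gene Ptgis had too few reads to test and averaged 0.617 CPM in line 1 and 0.0106 CPM in lines 2 to 4. For inactivation, where edgeR called 0 of 4 tested with 1 at an unadjusted p under 0.05, the carbonyl reductase gene Cbr3 had the smallest p among genes of at least 1 CPM. Its log2 difference was 0.09, -1.12, -0.83 and -2.31 in lines 1 to 4, and it did not pass (edgeR adjusted p = 0.559, and 0.0674 without line 1). Ptgr1 and Ptgr2, which reduce 15-keto prostaglandins, stood at 24.4 ± 3.21 and 48.4 ± 7.88 CPM with WT-USP21, against 23.9 ± 3.31 and 45.9 ± 2.93 CPM with ED-USP21 (SD, n = 4 each).

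Of 7 other prostanoid receptor genes 2 were tested, with 0 called by edgeR and 0 at an unadjusted p below 0.05. Ptger1, the calcium-linked receptor EP1, stood at 13.5 ± 1.99 CPM with WT-USP21 and 11.9 ± 1.65 CPM with ED-USP21 (SD, n = 4 each; edgeR adjusted p = 0.744). Ptger3, the receptor EP3, had 2 reads in WT-USP21 libraries and 0 in ED-USP21 libraries, and Ptgfr and Ptgdr had 0 reads. Of 14 genes of the lipoxygenase and leukotriene branch 6 were tested, with 0 called by edgeR and 1 at an unadjusted p under 0.05. That gene was Cysltr1, a receptor of cysteinyl leukotrienes, at 0.353 ± 0.309 CPM with WT-USP21 and 0.705 ± 0.488 CPM with ED-USP21 (SD, n = 4 each; log2 -1.13, SE 0.29, edgeR adjusted p = 0.365). Its WT-USP21 library had the smaller value in 4 of 4 lines, and it was named after its values were seen. Lta4h, the leukotriene A4 hydrolase, stood at 111 ± 2.64 CPM with WT-USP21 and 108 ± 14.2 CPM with ED-USP21 (SD, n = 4 each). Alox5, the 5-lipoxygenase gene, averaged 0.290 CPM.

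Other transporters of the same families did not move as one. Of 14 other SLCO genes 3 were tested. Slco5a1 rose without line 1 (log2 2.80, SE 0.26, edgeR adjusted p = 0.0084), with -0.68 in line 1 and 2.69, 2.24 and 3.42 in lines 2, 3 and 4. Slco4a1 rose as well (log2 0.50, SE 0.09, edgeR adjusted p = 0.0385), and Slco3a1 did not pass (log2 -0.20, edgeR adjusted p = 0.621). Of 9 other ABCC genes 6 were tested. Abcc3, an organic anion pump, fell without line 1 (log2 -0.68, SE 0.12, edgeR adjusted p = 0.0374), with 0.25 in line 1. Abcc1, a pump of leukotriene C4, did not pass (log2 0.12, edgeR adjusted p = 0.342).

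Of the genes known to respond to cyclic AMP and CREB, the pathway below EP2 and EP4, 13 of the 14 found were tested. Fos fell without line 1 (log2 -0.97, SE 0.14, edgeR adjusted p = 0.0182), with 1.48 in line 1 and -0.84, -0.72 and -1.40 in lines 2, 3 and 4. The others did not pass, and the median of the list was -0.10 without line 1, where that of all genes was 0.004. Crem, which encodes the cyclic AMP responsive repressor ICER, had a log2 difference of 0.34 there (edgeR adjusted p = 0.317).

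**Figure D5:**
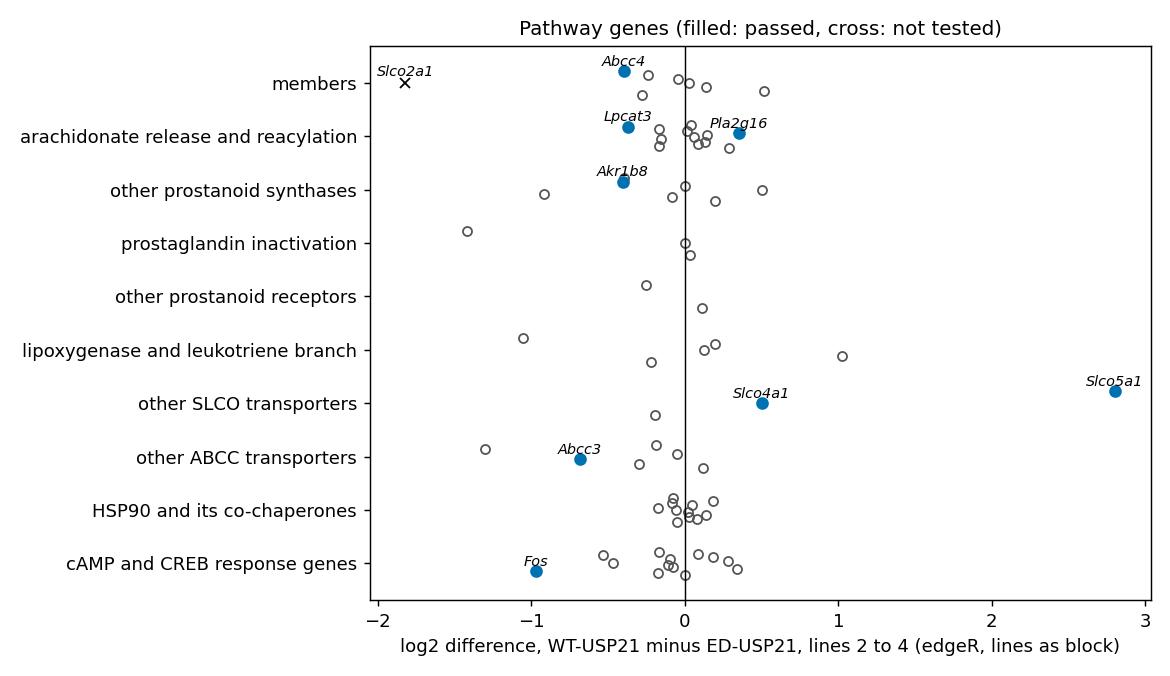
Log2 difference, WT-USP21 minus ED-USP21 in lines 2 to 4 with lines as a block (horizontal axis), of each tested gene by role (rows). Filled points passed an edgeR adjusted p under 0.05, open points did not, and the cross is Slco2a1, which was not tested. Slco2a1 lies furthest to the left at -1.82 and Slco5a1 furthest to the right at 2.80.

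Over the 8 libraries, the genes of at least 1 CPM whose log2 level followed that of Slco2a1 most closely were Abcd3, Ugt2b34, Wdr33, Lpcat3 and Rasef, with Pearson's r of 0.976, 0.973, 0.969, 0.965 and 0.964. For Ptgs1 they were Sema4g, Sh3yl1, Uhrf1bp1, Ap1b1 and Acot2, with r of 0.994 to 0.996. Sema4g averaged 19.1 CPM in line 1 and 3.37 CPM in lines 2 to 4, as Ptgs1 averaged 66.2 and 15.4 CPM. For Ptgs2 they were Ddx58, Acyp1, Siglec15, Fam50a and Cry1, with r of 0.945 to 0.978. Each was the best of 12319 genes over libraries that share lines and constructs, so these are descriptions of likeness in 8 libraries.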

How the data were processed

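One shared allele of the cells is not reported here. Total RNA of 8 cultures, 4 lines with 2 constructs each, was sequenced, and the authors deposited whole-number read counts per gene, not normalised. CASAVA, STAR, TopHat, Cufflinks and HTSeq with mouse build mm9 are named, per the submitters' processing notes, without versions or roles. The deposited tables close with 3 rows that name no gene. Reads outside any gene made up 11.4% to 20.6% of a library, and all 3 rows were left out of totals and fits. Reads aligned to several places are uncertain, since pseudogenes such as those of Ptges3 share sequence with their parent.

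From the counts, edgeR 4.0.16 in R 4.3.3 (TMM scaling, filterByExpr, quasi-likelihood test) was fitted over 16192 genes, with Benjamini-Hochberg adjustment over all of them, and a call is an adjusted p below 0.05. The comparisons were WT-USP21 against ED-USP21 without and with the line as a block, the 4 lines with construct as a covariate, and construct by background label. Differences are WT-USP21 minus ED-USP21, and log2 CPM was taken with 2 as prior count. Standard errors are the log2 difference over the square root of F. Libraries sharing a number are 1 cell line, which gives the pairing, and their deviations from the group means correlated across genes at 0.770, 0.503, 0.468 and 0.347 in lines 1 to 4. Libraries of lines 2 and 4 also correlated across lines, at 0.443 with WT-USP21 and 0.474 with ED-USP21. The group means include line 1, so its offset enters the deviations of the other lines alike. These correlations therefore cannot test the pairing, nor whether lines 2 and 4 are independent, which is not shown. Nothing says that cultures were repeated within a line and construct. Alternatives were DESeq2 1.42.0, its size factors in edgeR, no filter, and each line left out. The members, gene lists and tests were chosen with earlier results of these data known. Members are all named. From each list those called within lines or without line 1 are named, or else up to 3 of at least 1 CPM with the smallest p. A gene named outside this rule was chosen after its values were seen. The scripts were tested on simulated data. Of 151 symbols in the lists 148 were in the tables. Promoters are from RefSeq (all 10 members matched), and transcript lengths from GENCODE M21.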

Additional observations from a re-analysis of the deposited data

Results flagged for a closer look

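Of 16 groups of 4 libraries examined (8 members with either construct), 5 held 1 library far from the other 3, where chance gives about 1 in 20, or 0.8. In each the library was that of line 1. The chance value takes the groups as independent, but they share the same libraries, and the share over all genes was not computed. Over all genes tested, both libraries of line 1 lay above all libraries of lines 2 to 4 in 26% and below them in 24.3%. A line 1 library set apart is thus no trait of the members alone. The gap to the nearest library, as a share of the group's range, was 0.969 for Ptgs1 with WT-USP21 (highest), 0.857 for Ptgs1 with ED-USP21 (highest), 0.836 for Ptges with WT-USP21 (lowest), 0.956 for Ptger4 with WT-USP21 (highest) and 0.935 for Abcc4 with ED-USP21 (lowest).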

How the results depend on the processing

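Of the tested values of single members under the alternatives, 182 stayed on their side of the threshold, 2 gained a call and 3 lost one. Gained were Abcc4 within lines without line 1 and Ptges2 among lines in DESeq2 (adjusted p = 0.0302). Lost were Ptgs1, Ptges and Ptger4 among lines without line 1. The cause was not tested. With lines left out in turn, members called ran from 0 to 1 within lines and from 0 to 3 among lines. Genes called ran from 0 to 383 without the block, 0 to 746 with it, and 65 to 3261 among lines, against 0, 4 and 4019 with all lines. Without line 1 the counts were 383, 746 and 65. Without line 2, 3 or 4 in turn, 0 genes were called in either construct comparison, and 2483, 2916 and 3261 were called among lines. The replicate block gave 4 called genes, against 0 with no replicate block, and changed no call of a member. DESeq2 called 60 without the block, 407 with it, 6534 among lines and 7 by background label. Without the filter 58 were called within lines. The few reads of Hpgd and the 0 reads of Ptger2 limit what can be said of them.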
